A study of Zea mays with 18 samples.

Results

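The genes described here were higher in shoots of iron-deficient maize than in shoots of iron-sufficient maize, and they are 71 of the 40690 genes counted. They were chosen on their mean CPM, counts scaled to library size, plus 0.1 in sufficient (P), deficient (M) and resupplied (R) shoots. A gene was a member where M/P was at least 1.5, R/M was under 1.5, M was at least 5, and each deficient shoot library lay above each sufficient one. Its mean over the 9 shoot libraries also had to exceed that over the 9 root libraries, and its deficient over sufficient ratio in roots had to be under 1.4. These values chose the members, so the shoot values and the root ratio of deficient over sufficient are given as a description, with no test. The choice depends on single libraries: without the second sufficient shoot library the same rule found 146 genes, 67 of them among the 71, and with scaling by total counts alone it found 209, with 62 shared.

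The plants were of the maize inbred line W22, with no mutant or transgenic line among the libraries used. They were kept in hydroponics for 12 days and then held for 3 days with iron (sufficient) or without it (deficient). One set of the deprived plants was next given 0.1 mM FeSO4-EDTA (resupplied), the remaining plants got fresh solution, and organs were harvested 24 hours later. Each of the 6 groups, 3 conditions in roots and in shoots, held 3 libraries labelled as biological replicates. The labels do not give the number of plants behind a library, nor tie root and shoot libraries to the same plants, so p-values measure only the spread between these libraries. Totals of estimated counts ran from 69390438 to 84318039 in shoots and from 63058129 to 78431980 in roots.

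Iron is a cofactor of the photosynthetic electron transport chain and of enzymes of chlorophyll synthesis, and young leaves that lack it become chlorotic. Grasses such as maize take up iron mainly as complexes with phytosiderophores released by the root, and move it to the shoot in the xylem. The shoot depends on what the root delivers, and a large part of leaf iron is held in chloroplasts. The files list genes by identifier only. None of the 40690 identifiers occurs in the table of 49888 maize genes at hand, which is of another inbred line's assembly. No function is therefore given for any member, and lists of iron, chlorophyll or other pathway genes could not be applied. For the same reason the organ labels could not be checked against known marker genes. In whole shoots, more or fewer cells of a type and more or less RNA per cell cannot be told apart.

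The members were divided by the share of their log2 rise that was left after 24 hours of iron. A member was called reset where its log2(R/P) was below 0.5 times its log2(M/P), and kept otherwise. This gave 38 reset and 33 kept genes. By this line a kept gene may still have fallen after resupply, and a reset gene may have stayed above its sufficient level. The line does not mark a gap, as 9 members had between 0.4 and 0.6 of the log2 rise left. The reset gene nearest to it was Zm00004b003342, with means of 5.07, 8.04 and 6.25 CPM in sufficient, deficient and resupplied shoots and a share of 0.45. The nearest kept gene was Zm00004b003084, with 5.42, 8.38 and 6.78 CPM and a share of 0.51.

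**Figure D1:**
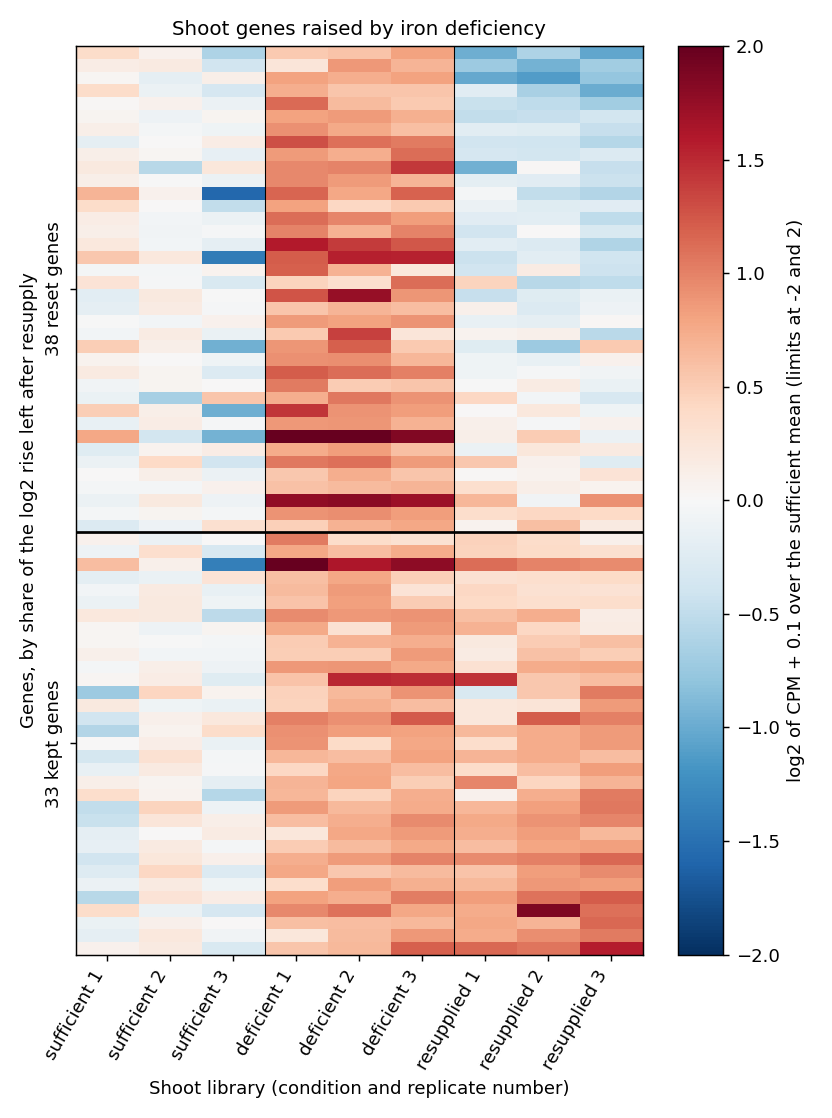
Colour shows log2 of CPM + 0.1 of each of the 71 genes (lines, ordered by the share of the log2 rise left after resupply) in each of the 9 shoot libraries (columns), relative to the gene's mean in sufficient shoots. The 38 reset genes lie above the heavy line and the 33 kept genes below it, and 9 genes near the line have a share between 0.4 and 0.6.

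The M/P ratio ran from 1.51 to 4.25 with a median of 1.71, so most members changed little in size. It was 2 or more in 14 genes, 11 reset and 3 kept, and 3 or more in 3 genes. The median M/P was 1.79 in reset and 1.58 in kept genes. After resupply the R/P ratio of the reset genes ran from 0.51 to 1.47 with a median of 0.89, and 26 of the 38 had R below P. This held for 51% of the 10145 genes with M of at least 5 and a higher mean in shoots than in roots. Scaled by total counts, under which the median log2 difference of all genes was 0.184 for deficient and 0.101 for resupplied against sufficient shoots, 20 of the 38 had R below P. By size, 12 reset genes had R/P of 0.8 or less, where 14.3% of the 10145 did. The highest ratios of reset genes were those of Zm00004b026831 at 1.47 and, named after its values were seen, Zm00004b032510 at 1.31. In the kept genes the median R/P was 1.63 and the highest 2.48. R/P was 1.5 or more in 22 of them, where it was in 1.72% of the 10145. R was above M in 15 of 33 (55.2% of the 10145), or in 12 of 33 with total counts. All 38 reset genes had R below M and all 33 kept genes had R above P under both scalings. With TMM this follows from how the classes were drawn, and with total counts it describes genes classed with TMM. The class line used R/P, so nothing is read from the class counts set beside shares of the 10145.

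The class medians were also taken by library. The median log2 ratio of the reset genes to their sufficient mean was 0.90, 0.85 and 0.80 in the 3 deficient shoot libraries and -0.13, -0.19 and -0.29 in the 3 resupplied ones. For the kept genes it was 0.66, 0.73 and 0.77 in deficient and 0.61, 0.74 and 0.84 in resupplied shoots. In the sufficient libraries it was 0.06, 0.02 and -0.11 for reset and -0.12, 0.16 and -0.06 for kept genes. For the kept genes the second sufficient library was thus above the other two, and it is the library without which the rule finds 146 genes.

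**Figure D2:**
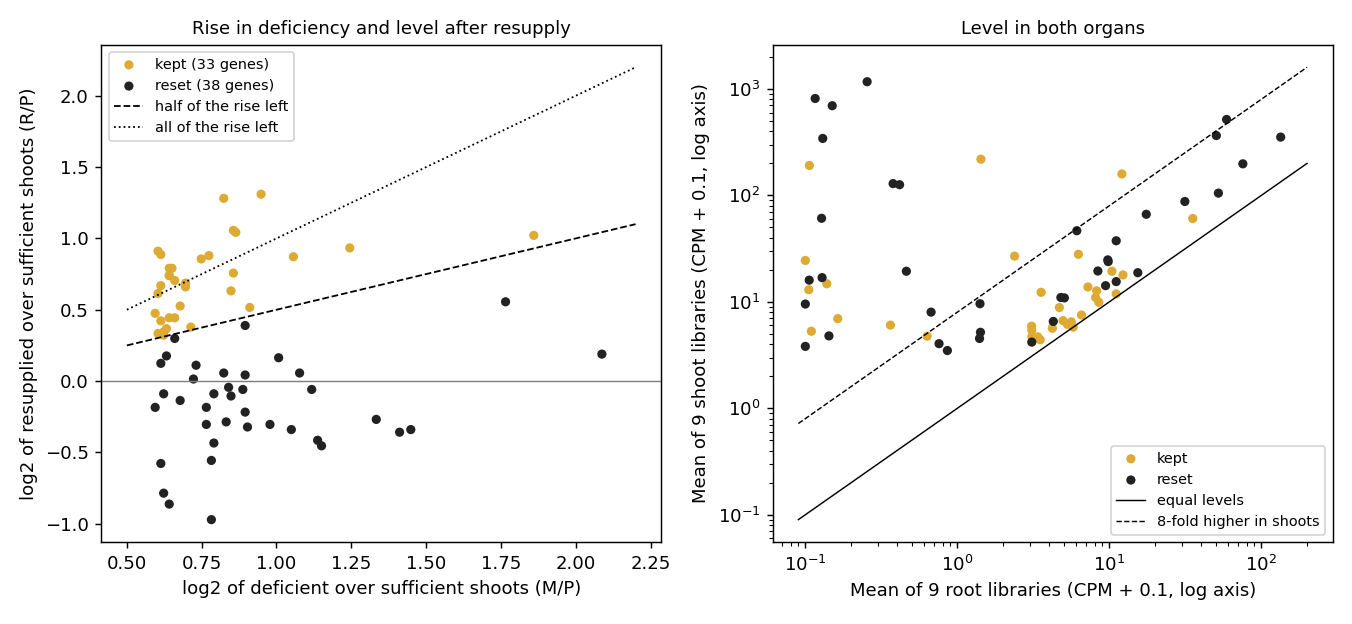
Left, log2 of resupplied over sufficient against log2 of deficient over sufficient mean CPM + 0.1 in shoots, 1 point a gene, with lines where 0.5 of the rise or all of it is left. Right, mean CPM + 0.1 over 9 shoot libraries against that over 9 root libraries on log axes, where 25 of the 71 genes lie above the dashed line of 8-fold higher levels in shoots.

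Among the reset genes, Zm00004b030191 had the highest M/P, 4.25. Its levels were 15.5, 6.99 and 4.62 CPM in the sufficient, 46.0, 37.2 and 32.9 CPM in the deficient and 9.79, 12.8 and 8.28 CPM in the resupplied shoot libraries. Every deficient library was above all others, and the sufficient and resupplied libraries overlapped. The fitted log2 difference between deficient and sufficient shoots was 2.10, and it was 1.79 without the third and 2.75 without the first sufficient library. Zm00004b026831, the second by M/P at 3.40, had 4.37, 5.5 and 4.45 CPM, then 16.5, 17 and 15.9 CPM, then 7.64, 4.54 and 9.08 CPM in the same order. It had a count of 0 in all 9 root libraries. Its deficient libraries differed little, and its resupplied ones lay between the other groups or, for the second, inside the sufficient range.

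Zm00004b034914 had 59.0, 46.9 and 15.2 CPM in sufficient, 93.4, 119 and 118 CPM in deficient and 29.9, 34.9 and 30.5 CPM in resupplied shoots. The third sufficient library was far below the other two, so the M/P of 2.73 rests in part on it. Without that library the fitted log2 difference was 1.07, and without the first sufficient library it was 1.84. As a description, edgeR called the gene higher with all libraries, but not in every fit with a library left out. The authors' deposited table did not call it in deficient against sufficient shoots.

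Identifiers within 10 of each other were found for 4 reset genes, Zm00004b007952, Zm00004b007957, Zm00004b007958 and Zm00004b007961, and Zm00004b007957 and Zm00004b007958 were the only members with consecutive identifiers. The search for near identifiers was added after the data had been seen, and the files do not say whether identifiers follow genome order. Zm00004b007952 had 1030, 898 and 855 CPM in sufficient, 2010, 1830 and 1660 CPM in deficient and 792, 805 and 654 CPM in resupplied shoots. All 3 groups were apart in this gene, with the resupplied libraries lowest. Zm00004b007957 gave 757, 678 and 652 CPM, then 1310, 1180 and 1060 CPM, then 603, 586 and 503 CPM, with the groups again apart. Zm00004b007961 gave 267, 222 and 205 CPM, then 693, 612 and 544 CPM, then 199, 191 and 152 CPM. Its M/P was 2.66, and its resupplied libraries were also below all sufficient ones. The means of Zm00004b007958 were 579, 1030 and 478 CPM.

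Summed, these 4 genes had a mean of 2430 CPM in sufficient, 4660 CPM in deficient and 1970 CPM in resupplied shoots. In roots the sum was 0.423, 0.237 and 0.0941 CPM in the same order. Their R/P lay between 0.78 and 0.82. Of the identifiers between them, 4 were under 2 CPM in deficient shoots and 2 had a count of 0 in all shoots. Whether they are near-identical copies that share reads could not be checked without sequences, so the division of counts among them is uncertain.

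A second pair of near identifiers was Zm00004b020176 and Zm00004b020180. Zm00004b020180 had 463, 418 and 464 CPM in sufficient, 782, 809 and 730 CPM in deficient and 317, 327 and 346 CPM in resupplied shoots, with no overlap between the groups. Zm00004b020176 had means of 291, 521 and 282 CPM. The 3 identifiers between them, which are no members, were higher in each deficient than in each sufficient shoot library too, but below the threshold: M/P was just under it at 1.5 for Zm00004b020177, 1.43 for Zm00004b020178 and 1.26 for Zm00004b020179. The next identifier, Zm00004b020181, had an M/P of 1.94 and was left out by its root ratio of 1.54.

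**Figure D3:**
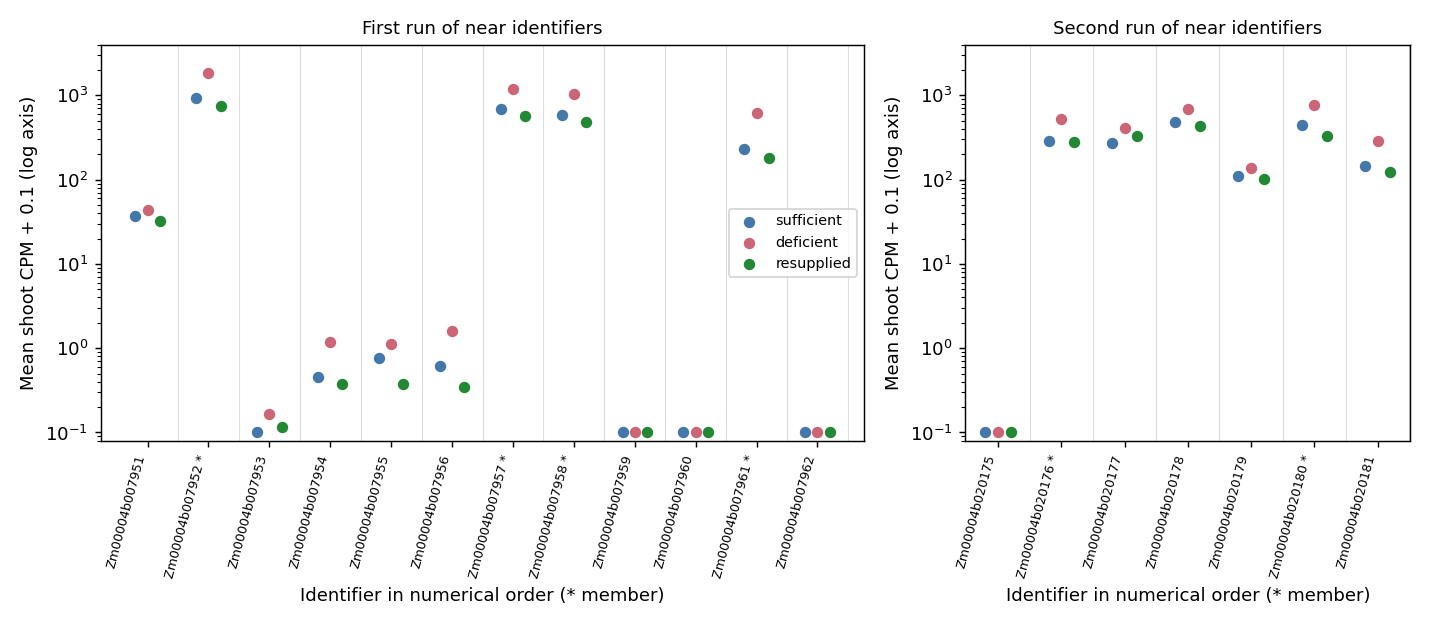
Mean CPM + 0.1 (log axis) in sufficient, deficient and resupplied shoots, 3 libraries each, for the members marked with an asterisk, the identifiers between them and 1 on either side. In the first run the 4 members stand above 100 CPM and the identifiers between them are under 2 CPM or at 0, and in the second run the genes between the members also have their highest mean in deficient shoots.

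The summed level of the 38 reset genes was 4740, 4330 and 4030 CPM in sufficient, 8540, 8190 and 7410 CPM in deficient and 3820, 3770 and 3490 CPM in resupplied shoots. Without the 4 genes of the first run the sums were 2050, 1950 and 1790, then 3400, 3540 and 3220, then 1720, 1700 and 1740 CPM, and the resupplied libraries were still the lowest. As a share of all counts, without TMM, these last sums overlapped between resupplied (0.152 to 0.159%) and sufficient shoots (0.152 to 0.168%), while those of all 38 genes did not, at 0.318 to 0.339% against 0.342 to 0.386%. The 33 kept genes summed to 602, 651 and 500 CPM in sufficient, 1230, 1150 and 1210 CPM in deficient and 963, 1040 and 1090 CPM in resupplied shoots. CPM is not scaled by gene length, so these sums weigh long genes more.

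Some reset genes had a lower mean in resupplied than in sufficient shoots, a ratio that was used to draw the class. The lowest R/P, 0.51, was that of Zm00004b007889, named after its values were seen, with 22.7, 19.6 and 23.9 CPM in sufficient, 38.5, 36.8 and 38.7 CPM in deficient and 10.8, 10.1 and 12.9 CPM in resupplied shoots. The groups were far apart in it and narrow within. Zm00004b018607, also named for its values, had 158, 129 and 79.2 CPM, then 176, 182 and 213 CPM, then 62.1, 79.4 and 59.3 CPM. The third sufficient library of this gene lay just under the highest resupplied one, so those groups overlapped. In 10 reset genes every resupplied library was below every sufficient one, where this held for 14.7% of the 26318 genes tested in shoots.

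Of the kept genes, Zm00004b010685 had the highest M/P, 3.63, with 151, 106 and 38.1 CPM in sufficient, 428, 303 and 342 CPM in deficient and 214, 195 and 190 CPM in resupplied shoots. The groups did not overlap, and the resupplied libraries lay between the others, at an R/P of 2.03 and a share of the rise just past the line. The third sufficient library was again the low one, and without it the fitted log2 difference between deficient and sufficient shoots went from 1.86 to 1.48.

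Zm00004b020380 had 15.7, 16.9 and 12.8 CPM in sufficient, 22.5, 43.5 and 42.4 CPM in deficient and 41.7, 22.1 and 23.3 CPM in resupplied shoots. Both iron-deprived groups were uneven: 1 deficient library was as low as 2 resupplied ones, and 1 resupplied library was as high as 2 deficient ones. Zm00004b031703 had 11.8, 11.7 and 7.08 CPM, then 19.8, 18.7 and 19.1 CPM, then 15.6, 17 and 11.3 CPM. Of the resupplied libraries the third was within the sufficient range.

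Zm00004b022050 had 90, 138 and 126 CPM in sufficient, 196, 213 and 234 CPM in deficient and 228, 237 and 262 CPM in resupplied shoots. It was at 0 in 8 of 9 root libraries and at 0.0574 CPM in the other. The resupplied libraries overlapped the deficient ones and stood above all sufficient ones. Zm00004b022991, named after its values were seen, was the only member with every resupplied library above every deficient one, at 17.4, 20.6 and 19.3 CPM, then 29.0, 29.2 and 29.9 CPM, then 32.8, 30.8 and 42.5 CPM, where 14.4% of genes tested showed this. Of kept genes, 29 of 33 had every resupplied library above every sufficient one, where 13.2% of genes did. In 5 kept and 35 reset genes every resupplied library was below every deficient one, where this held for 13.5% of genes. The line between the classes used resupplied levels in these same libraries, so nothing is read from the counts of kept and reset genes.

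**Figure D4:**
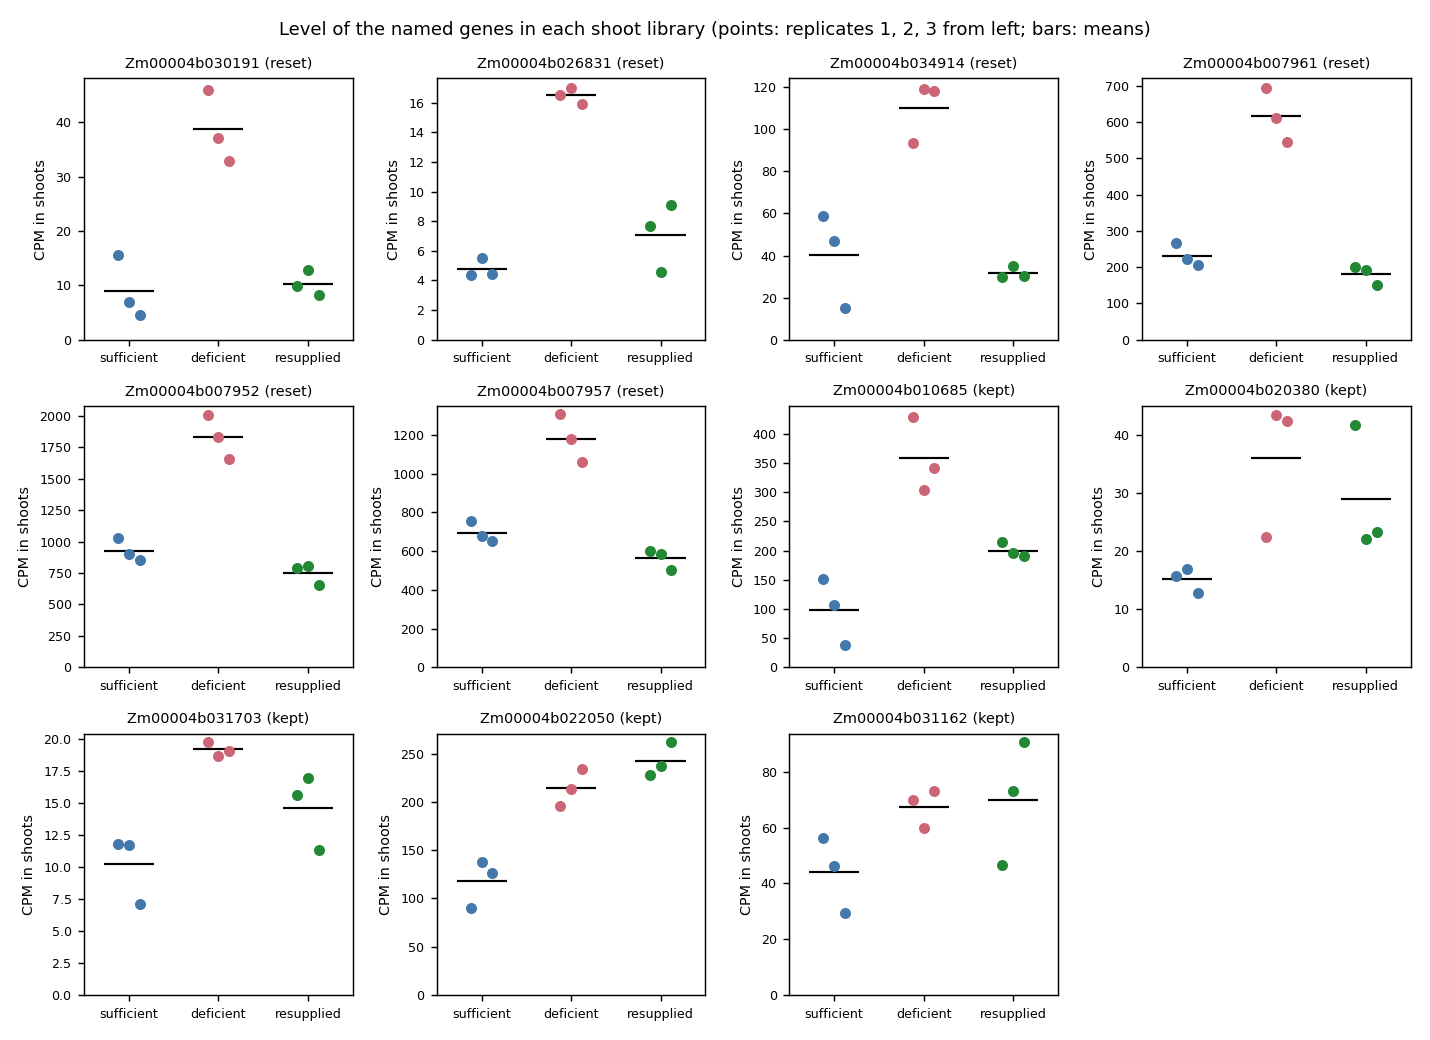
CPM in the 9 shoot libraries of the genes named by rule (each panel 1 gene; points are replicates 1, 2 and 3 from left, bars the mean of 3). In each panel the deficient points lie above all sufficient points, and in the reset genes the resupplied points are near or below the sufficient ones, save for Zm00004b026831 at up to 9.08 CPM.

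The spread within sufficient shoots was wide for some members. In 8 of 71 (11.3%) the highest sufficient library was at least 2-fold above the lowest, against 1.48% of the 10145 genes with M of at least 5 and a higher mean in shoots than in roots. In 6 of these 8 the third sufficient library was the lowest and the first the highest, and these 6 include Zm00004b030191, Zm00004b034914 and Zm00004b010685. The rule used these libraries, and the part of this spread in the choice of members was not tested. In deficient shoots 1 member (1.41%) had such a spread, against 0.848% of the 10145 genes. In resupplied shoots 4 members (5.63%) had it, against 0.877%.

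Calls by edgeR's quasi-likelihood test are given for these genes as a description. At a Benjamini-Hochberg adjusted p under 0.05, 48 of 71 members were called higher in deficient than in sufficient shoots, 27 reset and 21 kept, where 1.26% of all genes tested were, and 0 lower (4.44%), a count the choice fixes. By the choice, all 71 had every deficient above every sufficient library, as did 10.8% of genes. In a fit over all 18 libraries 14 of 71 were, 11 reset and 3 kept (0.498% of genes), and with total counts 68 were, 36 reset and 32 kept (12.1%). The kept calls moved when a library was left out. They numbered 10 (0.785% of genes), 22 (2.11%) and 11 (0.599%) without the first, the second and the third sufficient library. Without the first, the second and the third deficient one they numbered 15 (0.555%), 11 (0.49%) and 9 (0.61%). Each such fit holds fewer libraries, and whether the calls rest on particular libraries was not tested. Against deficient shoots, 32 members were called lower in resupplied shoots, all of them reset (3.72% of genes), and 0 higher (4.86%), with 1 member higher at an unadjusted p under 0.05 (11.2% of genes) and 0 higher by DESeq2 (7.09% of its genes). Against sufficient shoots, 20 were called higher in resupplied shoots, 1 reset and 19 kept (4.05% of genes), and 6 lower, all reset (5.47%). With total counts 28 were called higher (9.22% of genes) and 4 lower (3.62%). The 6 lower calls became 10 with the replicate number as a block (5.6% of genes) and 11 by DESeq2 (8.48% of its genes). They became 3 without the first sufficient (3.1%) and 2 without the third resupplied library (2.76%). The 26 calls became 13 without the third resupplied shoot library (1.36% of genes higher, 2.76% lower). They became 16 without the first sufficient one (1.89% and 3.1%) and 12 in the fit over all 18 libraries (2.13% and 2.53%). In both comparisons with resupplied shoots the division of calls between reset and kept rests on how the classes were drawn. Nothing is read from that division.

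The authors' deposited table, on which the rule did not draw but which rests on the same samples, called 54 of the 71 higher in deficient than in sufficient shoots (3.25% of its genes). Between resupplied and deficient shoots the authors' deposited table called 38 members lower, 35 reset and 3 kept (7.21%), and 0 higher (8.97%). Against sufficient shoots it called 22 higher, 1 reset and 21 kept (7.58%), and 12 lower, all reset (8.94%), in the authors' deposited table. The division between reset and kept of these calls in the authors' deposited table rests on the same class line.

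The pattern was next described in libraries that had no part in the choice. The rule was applied 3 times, each time without the libraries of 1 replicate number, and the ratios were read in the shoot libraries left out. The rule then gave 112, 161 and 104 genes for left-out numbers 1, 2 and 3, of which 57, 57 and 50 were members. In the left-out libraries the deficient one was above the sufficient one in 83.9%, 75.2% and 77.9% of these genes, against 50.3%, 49.2% and 50.4% of all genes tested. It was at least 1.5-fold above in 39.3%, 24.2% and 42.3%, against 9.06%, 8.39% and 8.52%. The median ratio was 1.39, 1.17 and 1.37 in the left-out libraries and 1.70, 1.63 and 1.73 in those used, so the size given by the libraries that chose the genes was larger than that in libraries they did not use.

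The split into classes was also read in the left-out libraries. Genes called reset in the libraries used had a median resupplied over sufficient ratio of 0.79, 0.90 and 0.93 in the left-out ones, and the resupplied library was below the deficient one in 88.9%, 81.5% and 86.7% of them. For kept genes the ratio was 1.37, 1.2 and 1.55 and the shares were 45.0%, 33.6% and 29.5%, against 49.1%, 49.0% and 50.7% of all genes. The kept genes of left-out number 2 had the smallest median deficient over sufficient ratio, 1.11. Of the 71 members, 33 were chosen all 3 times, 20 reset and 13 kept, and of these 20 and 9 had the same class each time. A further 27 were chosen 2 times and 11 once.

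**Figure D5:**
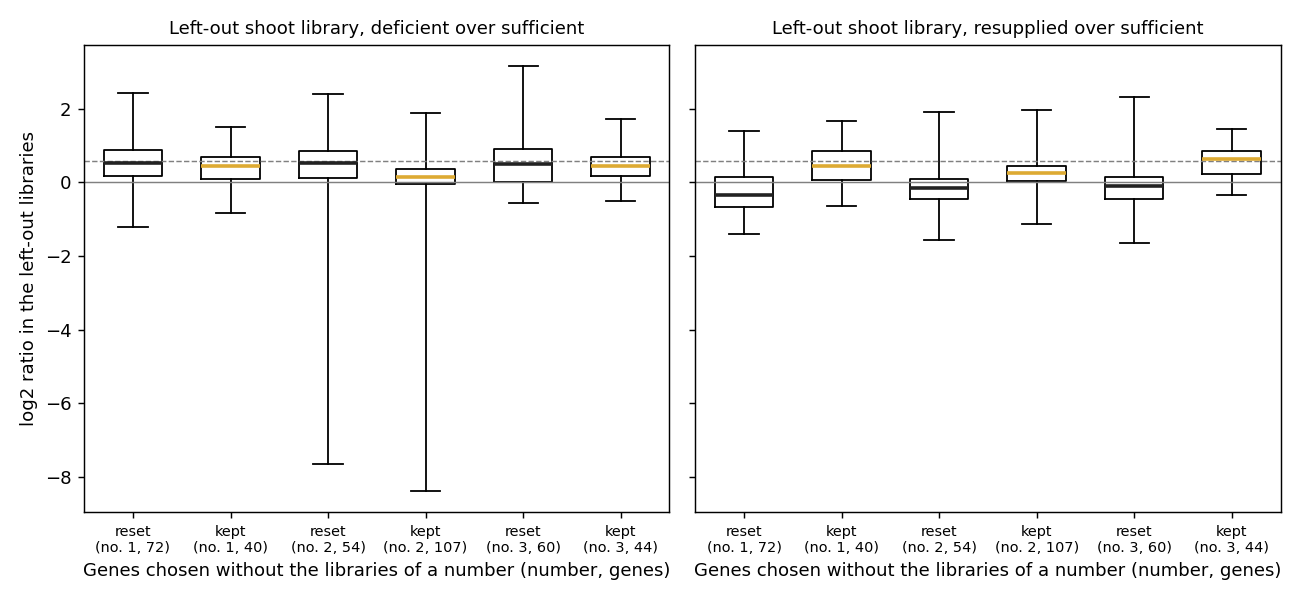
Log2 ratio of the left-out deficient (left) and resupplied (right) shoot library to the left-out sufficient one, for genes chosen without the libraries of replicate number 1, 2 or 3 (number of genes in brackets). Boxes span the quartiles, with the median as a thick line and whiskers to the lowest and highest gene, and the dashed line is at 1.5-fold. The reset genes have medians above 0 on the left and below 0 on the right, and the kept genes have medians above 0 on both.

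Members differed widely in their root level. In 25 of 71 (35.2%) the mean over shoots was at least 8-fold that over roots, 15 reset and 10 kept, against 17.4% of the 10145 genes with M of at least 5 and a higher mean in shoots. The root mean was under 1 CPM in 24 members (33.8%), 16 reset and 8 kept, against 8.33%. A gene near 0 in roots meets the cap on the root ratio by construction, and its part in these shares was not tested. The median shoot over root ratio was 4.70 in reset and 1.86 in kept genes, against 1.63 in the 10145. At the other end, Zm00004b020283 had a mean of 5.69 CPM in both organs to 3 significant digits. Of the members, 16 reached 100 CPM in deficient shoots, 13 reset and 3 kept.

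Resupplied roots entered the rule only within the mean of the 9 root libraries, so their comparisons were tested, although the sufficient and deficient root libraries they share were used in its cap. Of 71 members, 56 passed the filter on low counts in roots, 29 reset and 27 kept. Between resupplied and deficient roots 1 member was called higher (1.79% of the 26577 genes tested) and 0 lower (1.74%), with 6 (10.1% of genes) and 1 (8.47%) at an unadjusted p under 0.05. DESeq2 called 3 higher (4.47% of its genes) and 1 lower (3.86%). The authors' deposited table called 4 members higher there, all kept (5.33% of its genes), and 1 lower, a reset gene (4.71%). The median log2 difference of the 56 genes was 0.15, against -0.001 for all genes. It was -0.11 for the reset and 0.24 for the kept genes. The deficient root libraries in this comparison are those the rule caps. For deficient against sufficient roots the medians were -0.18 for the 56, -0.12 for the reset and -0.27 for the kept genes. The part of the cap in the medians for resupplied against deficient roots was not tested. Every resupplied root library was above every deficient one in 7 members, 1 reset and 6 kept (10.1% of genes), and below in 3, all reset (13.2%).

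The gene called was Zm00004b031162, a kept gene with 30.9, 37.4 and 30.8 CPM in sufficient, 28.8, 25.2 and 25.1 CPM in deficient and 30.7, 58.1 and 50.8 CPM in resupplied roots. All resupplied libraries were above all deficient ones, by little for the first. The log2 difference was 0.85 ± 0.20 (SE, n = 3 against 3; edgeR's quasi-likelihood test, adjusted p = 0.04). Leaving out single libraries moved the adjusted p between 0.0022 and 0.14, and the call was lost on leaving out any 1 of the 3 deficient libraries or either resupplied library other than the first. In a fit with the replicate number as a block it was lost too (0 members called). In shoots this gene had 56.3, 46.3 and 29.5 CPM in sufficient, 69.8, 59.9 and 73.0 CPM in deficient and 46.7, 73.1 and 90.7 CPM in resupplied libraries, and the last group spanned the range of the deficient libraries and overlapped the sufficient ones.

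Between resupplied and sufficient roots, edgeR called 0 of the 56 members higher (0.64% of genes) and 0 lower (0.102%), with 4 (5.25%) and 2 (4.57%) at an unadjusted p under 0.05. DESeq2 called 1 higher (1.54% of its genes) and 0 lower (0.725%). Without the first resupplied root library edgeR called Zm00004b031162 higher, at a log2 difference of 0.73 (adjusted p = 0.03), against 0.50 with all libraries (adjusted p = 0.41). The authors' deposited table called 1 higher (1.97% of its genes) and 0 lower (0.832%). The median log2 difference was -0.02. Of the 56, every resupplied root library was below every sufficient one in 6 members, all reset (7.69% of genes tested), and above in 3 (7.75%). One of the 6 was Zm00004b035723, named after its values were seen, with 41.1, 34.5 and 31.7 CPM in sufficient and 30.0, 26.6 and 26.1 CPM in resupplied roots, a log2 difference of -0.37 ± 0.12 (SE, n = 3 against 3; edgeR's quasi-likelihood test, adjusted p = 0.27). In shoots its means were 66.4, 148 and 48.6 CPM.

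For deficient against sufficient roots, which the rule capped, 0 of 56 members were called in either direction by edgeR (2.08% of genes higher, 0.801% lower), with 1 higher (7.78%) and 5 lower (7.66%) at an unadjusted p under 0.05. DESeq2 called 0 higher (3.61% of its genes) and 1 lower (2.22%). The authors' deposited table also called 0 higher (4.14%) and 0 lower (2.61%). In 1 member every deficient root library was above every sufficient one (11.5% of genes), and in 4 every one was below (8.76%). The third deficient root library stood apart from the other two. Its median log2 ratio over the members was 0.06, against -0.20 and -0.19 in the others, and over the kept genes 0.02 against -0.37 and -0.29. It also had the lowest total count of the 18 libraries, 63058129. Without it edgeR called 1 kept gene lower in deficient roots (1.84% of genes) and 0 members higher (1.96%). It then no longer called Zm00004b031162 in resupplied against deficient roots.

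The values nearest to each threshold show how the set was bounded. Zm00004b004928 was just inside the fold threshold at an M/P of 1.51 with 58.9 CPM in sufficient and 88.8 CPM in deficient shoots. Zm00004b015051 was just outside at 1.5 with 3.60 and 5.44 CPM. At the level threshold, Zm00004b038412 was inside with M at 5.09 and Zm00004b039111 outside with 4.98. At the cap on R/M, Zm00004b022082 was inside at 1.37 and Zm00004b015177 outside at 1.54. At the cap on the root ratio, Zm00004b001174 was inside at 1.39 and Zm00004b017814 outside at 1.41. Of 158 genes that met the shoot criteria, 44 were left out only because their mean was higher in roots, 25 only by the root cap and 18 by both.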

How the data were processed

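RNA of 18 root and shoot libraries was sequenced. For each library a table of estimated counts was deposited by the authors. The values are whole numbers, so that rounding before the tests changed none. Trim Galore, HISAT2, StringTie and DESeq2 are named in the submitters' processing notes. No version, genome build or annotation is given in the sources used here. The authors also deposited 6 tables of comparisons that hold, per the file headers, a base mean (a normalised signal), a log2 fold change, a Wald score and a p-value. These were used only for the authors' own calls, and each sentence on them says so.

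CPM was computed from the counts with TMM scaling over all 18 libraries, unfiltered, in edgeR 4.0.16 under R 4.3.3. Tests were edgeR's quasi-likelihood F-test with filterByExpr, in 1 fit over the 9 libraries of an organ with the group as the only term. P-values were adjusted by Benjamini-Hochberg over all genes tested, with a threshold of 0.05. The SE given is the size of the log2 difference divided by the square root of its F value. It thus rests on a spread shared by the 9 libraries of the organ and moderated across genes. The code was tested on simulated data. DESeq2 1.42.0, other scalings, filters and fits, a replicate block and leaving out libraries were alternatives.

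The members and lists were chosen with earlier results of these data known. Genes named were, of reset and of kept members, the 4 with the largest M/P among those with at least 10 CPM in deficient shoots and the 2 with the highest level there. Named too were members called in a comparison with resupplied roots, genes beside a threshold and members with consecutive identifiers. Others are marked as named after their values were seen. Of the estimated counts from 1 to 40, multiples of 4 made up 29.3 to 33% per library, where 25% of these numbers are, so a count may not be 1 fragment and totals may overstate fragments. Counts divided by 4 were an alternative. The lowest estimated count of a member was 263 in a deficient and 59 in a sufficient shoot library.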

Additional observations from a re-analysis of the deposited data

How the results depend on the processing

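The number of genes the rule found moved most. It was 209 (88 reset, 121 kept) with total counts in place of TMM, a scaling under which the median log2 difference of all genes between deficient and sufficient shoots is 0.184. It was 144 (75 and 69) with a minimum of 1 CPM, 47 with a minimum of 10 CPM (17 kept) and 14 (11 and 3) with a fold of 2, where the criterion itself admits more or fewer genes. Leaving out libraries gave 66 to 161 genes, 34 to 72 reset and 31 to 107 kept. Without the second sufficient shoot library 96 genes were kept, without the first deficient one 50, and without the third deficient one 65 were reset. With DESeq2's size factors the rule found 62, with TMM within each organ 61, with 1 CPM added 67 and with 0.01 CPM added 74. Calls in shoots moved in a fit over all 18 libraries, to 14 for deficient against sufficient (0.498% of genes higher). For resupplied against sufficient shoots they moved to 12 (2.13% of genes higher, 2.53% lower). In that fit 1 member was called lower in resupplied than in sufficient roots (0.401% of genes). The cause was not tested. Counts divided by 4 gave 47 calls higher in deficient than in sufficient shoots (1.51% of genes). They gave 1 call higher in resupplied than in deficient roots (2.25% of genes). DESeq2 called 1 member in deficient against sufficient roots, which was lower (2.22% of its genes). It called 4 in resupplied against deficient roots, 3 higher (4.47%) and 1 lower (3.86%). In resupplied against sufficient roots it called 1, which was higher (1.54%). With single libraries left out, calls ran from 33 to 47 for deficient against sufficient shoots (0.49 to 2.11% of genes higher). They ran from 26 to 30 for resupplied against deficient shoots (1.91 to 2.7% of genes lower). For resupplied against sufficient shoots they ran from 13 to 25 (1.36 to 5.58% of genes higher, 2.76 to 5.77% lower). In each root comparison they ran from 0 to 1, where over all of these root fits 0.2 to 3.34% of genes were called higher and 0.0259 to 1.91% lower. With a replicate block the call between resupplied and deficient roots was lost (0 members, 1.06% of genes higher and 1.31% lower). In shoots 52 members were called higher in deficient against sufficient (1.42% of genes) and 34 lower in resupplied against deficient (3.94%). For resupplied against sufficient shoots 31 were called, 21 higher (4.14%) and 10 lower (5.6%). Same-numbered shoot libraries deviated together with correlations of -0.1 to 0.11 and root ones of -0.08 to 0.06, so the numbers were not taken to pair samples. Only the genes named for their M/P, their level in deficient shoots or a root call were followed under the alternatives. No log2 difference of the followed genes turned its direction past a call. Of the values, 231 stayed on their side of the threshold, 12 passed it and 9 left it. With libraries left out these numbers were 193, 6 and 17.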
